A study of Mus musculus with 12 samples.

Results

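The genes examined here make, regulate, take up and export cholesterol. They were chosen by name, from textbook membership of the mevalonate and sterol synthesis pathway, the control of the transcription factor SREBP2, sterol uptake and sterol efflux. The rule uses measured values only in asking for enough counts, and the list was drawn up with earlier results of these data known. The set holds 33 of the 39086 genes in the count table: 19 synthesis genes, 6 genes of SREBP2 control, 4 genes of uptake, lysosomal exit and esterification, and 4 efflux genes. Because the rule asked for enough counts, passing the filter on low counts was largely fixed beforehand. All 33 passed it, as did 17087 genes in all.

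Cells make cholesterol from acetyl-CoA through mevalonate, squalene and lanosterol. The precursor of SREBP2 sits in the endoplasmic reticulum bound to SCAP, and INSIG proteins hold both there while sterols are plentiful. When sterols fall, SREBP2 is cut, enters the nucleus and switches on the synthesis genes. Sterol surplus instead yields oxysterols, which activate the nuclear receptor LXR and with it the export pumps. In the small intestine, absorptive enterocytes take up dietary cholesterol through NPC1L1, esterify part of it with SOAT2 for chylomicrons, and return sterols to the lumen through the ABCG5 and ABCG8 half-transporters.

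The libraries came from the jejunum of male C57BL/6N mice, 12 weeks old, of the genotype Neurog3eYFP/+, in which 1 allele of the endocrine transcription factor gene Neurog3 carries a yellow fluorescent reporter. Mice ate a normal diet (ND, Safe D04) throughout, or a high fat diet (HFD, D12492) for 4 weeks from 8 weeks of age. Cells of enriched villi were sorted by fluorescence: those with the reporter are labelled enteroendocrine cells (EEC), and those without it are called non-EEC and are every other cell of the preparation. Each of the 4 groups had 3 libraries, and all of them, controls included, carry the reporter allele and so have 1 altered Neurog3 allele. The labels number 3 mice for each diet without tying the 2 populations of a mouse together, so a p-value covers only how much these libraries varied, which may be technical.

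Total counts ran from 9543183 to 29054281 per library. The 10 endocrine markers were all higher in EEC under either diet, and their summed level was 12581 to 67308 CPM (counts scaled by the library's total) in EEC libraries against 77.6 to 2370 CPM in non-EEC libraries. The non-EEC libraries differed in makeup between the diets. Their 14 enterocyte markers summed to 4231, 4420 and 24607 CPM under ND (the highest being replicate 1) and to 49285 to 114189 CPM under HFD, while their 14 T cell markers summed to 13759 to 41721 CPM under ND and to 120 to 1185 CPM under HFD. In EEC the enterocyte sums overlapped between the diets (13746 to 21266 CPM under ND, 12529 to 29524 CPM under HFD, the highest being replicate 2), and the T cell sums were 787 to 5165 CPM under ND and 46.3 to 255 CPM under HFD. These are bulk samples, so fewer cells of a type and less RNA per cell cannot be told apart in any value below.

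The start regions of the members were compared first, since SREBP2 acts on its targets beside the factors NF-Y and Sp1. RefSeq start regions (build GRCm38.p6) were matched for 27 of the 33 members, and the 250 bases before each start were searched on both strands for TCACNCCAC (a sterol response element), CCAAT (the NF-Y box), GGGCGG (the Sp1 box) and the core of an LXR direct repeat, a pair of GGTCA sites 5 bases apart. No match of one motif overlapped a match of another. The NF-Y box was in 15 of 16 synthesis genes (93.8%) and in 1 of 4 efflux genes, Abcg8 (25.0%), against 39.8% of the 11912 genes tested here that had such a region and 41.4% of those within the GC range of the synthesis genes. The Sp1 box was in 14 of 16 synthesis genes (87.5%) and 1 of 4 efflux genes, Abca1, against 59.3% of genes tested and 62.8% within that GC range. Counted per region and not per gene, since a gene can have several starts, the 2 boxes were each in 15 of 19 regions of synthesis genes (78.9%), against 33.8% and 32.7% of all RefSeq start regions of this length. The sterol response element was found in Hmgcs1 alone among the members searched (1.27% of genes tested, 1.05% of all regions), and the LXR core in none of them (0.0639% of all regions). These are matches of letters and not tests of binding.

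The stretches below are a choice from the members described later: the HMG-CoA synthase gene (Hmgcs1), the retention protein (Insig1) and SREBP2 itself (Srebf2), then the efflux genes, namely the LXR gene (Nr1h3), Abca1 and the sterol pump pair. Among them only Srebf2 and Nr1h3 passed the main test in a comparison below, and other members that passed are not shown. The stretches do not stand for all regions of their lists. Each is on the strand of its gene, 5′ to 3′, upstream of the RefSeq start and clear of annotated exons. Capitals mark the motifs, and a box on the other strand reads ATTGG or CCGCCC.
Hmgcs1, chr13:119690101-119690350, plus strand: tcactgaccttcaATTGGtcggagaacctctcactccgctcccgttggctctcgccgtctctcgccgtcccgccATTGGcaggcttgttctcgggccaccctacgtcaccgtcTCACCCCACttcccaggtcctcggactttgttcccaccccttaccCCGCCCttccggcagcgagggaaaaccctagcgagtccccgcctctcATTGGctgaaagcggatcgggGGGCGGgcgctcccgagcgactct
Insig1, chr5:28071162-28071362, plus strand: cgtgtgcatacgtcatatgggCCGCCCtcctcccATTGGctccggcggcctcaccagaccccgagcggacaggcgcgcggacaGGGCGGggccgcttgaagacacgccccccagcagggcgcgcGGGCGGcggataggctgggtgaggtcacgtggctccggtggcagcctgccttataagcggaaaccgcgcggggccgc
Srebf2, chr15:82147019-82147180, plus strand: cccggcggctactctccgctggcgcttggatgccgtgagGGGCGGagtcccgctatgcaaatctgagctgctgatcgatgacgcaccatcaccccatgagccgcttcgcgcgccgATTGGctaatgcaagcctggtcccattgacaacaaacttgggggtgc
Nr1h3, chr2:91195152-91195366, minus strand: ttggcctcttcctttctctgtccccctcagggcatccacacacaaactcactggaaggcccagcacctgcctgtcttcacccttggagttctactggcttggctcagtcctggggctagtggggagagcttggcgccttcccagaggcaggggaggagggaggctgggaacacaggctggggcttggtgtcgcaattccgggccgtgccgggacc
Abca1, chr4:53159896-53160145, minus strand: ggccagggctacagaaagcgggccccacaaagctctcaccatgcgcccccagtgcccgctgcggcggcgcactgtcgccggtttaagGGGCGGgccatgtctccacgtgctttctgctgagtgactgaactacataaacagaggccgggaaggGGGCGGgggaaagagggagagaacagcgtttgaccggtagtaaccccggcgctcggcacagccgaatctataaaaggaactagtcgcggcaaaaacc
Abcg5 and Abcg8, between their starts, chr17:84683012-84683120, strand of Abcg8: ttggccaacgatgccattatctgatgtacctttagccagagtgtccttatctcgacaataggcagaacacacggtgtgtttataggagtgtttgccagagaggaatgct
The Hmgcs1 stretch held 3 NF-Y boxes, 2 Sp1 boxes and the sterol response element, which lay 128 to 137 bases before the start. Insig1 held 1 NF-Y and 3 Sp1 boxes, and the printed part of Srebf2 held 1 of each. The Nr1h3 stretch held none, and Abca1 held 2 Sp1 boxes and no NF-Y box. The RefSeq starts used for Nr1h3 lie inside its annotated span (chr2:91184061-91202834), so the bases upstream of that whole span were not searched. Abcg5 and Abcg8 are transcribed away from each other from starts 109 bases apart, and the bases between the starts held none of the 4 motifs. Abcg8 did hold 2 NF-Y boxes, 109 to 114 and 170 to 175 bases before its start, which lie just beyond the printed stretch, where an exon of Abcg5 is annotated.

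**Figure D1:**
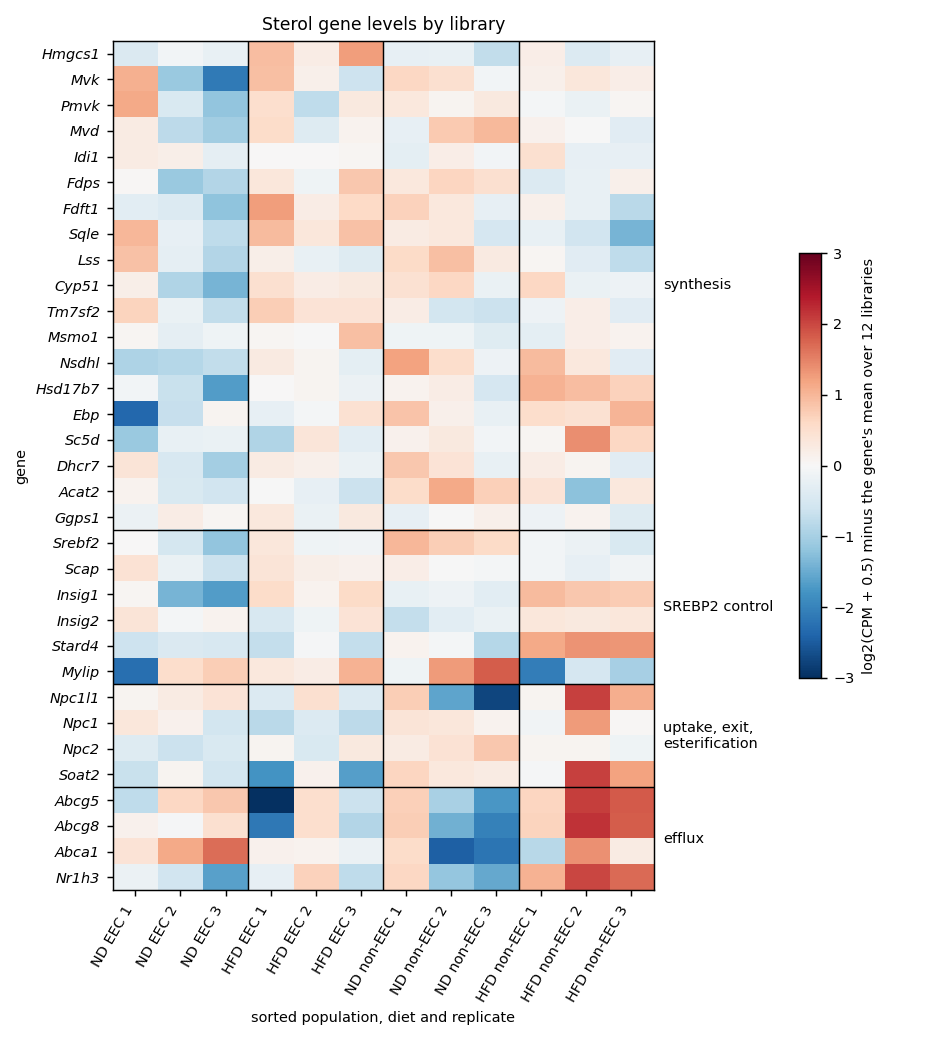
Level of each of the 33 genes (rows, grouped by role) in each of the 12 libraries (columns), as log2(CPM + 0.5) minus the gene's mean over the 12 libraries; red is above and blue below that mean. The efflux rows are blue in ND non-EEC replicates 2 and 3 and red in HFD non-EEC replicates 2 and 3, while ND non-EEC replicate 1, with enterocyte markers at 24607 CPM, is red.

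Per kilobase of exon, so that genes can be set against each other, Npc1l1, the receptor for cholesterol at the brush border, had the highest mean level of the 33 genes in each of the 4 groups: 159 and 129 CPM per kb in EEC under ND and HFD, and 95.1 and 324 CPM per kb in non-EEC. In ND non-EEC this rested on replicate 1: the 3 libraries had 221, 44.7 and 19.6 CPM per kb, and without replicate 1 which was left out after seeing the data, the mean was 32.2 CPM per kb, in place 2 below Soat2 at 42.3. The exon length merges the exons of all annotated transcripts of a gene, so the order also depends on the annotation. Over all 12 libraries Npc1l1 averaged 177 CPM per kb. Hmgcs1, which makes HMG-CoA, followed at 45.7, the ester-forming enzyme gene Soat2 at 44.8, Insig1 at 42.4 and the sterol carrier gene Stard4 at 39.8 CPM per kb. The lowest were Tm7sf2, a sterol reductase gene, at 3.45, Abca1, a cholesterol exporter gene, at 3.52, and Mylip, which encodes the ubiquitin ligase that degrades lipoprotein receptors, at 4.00. The order moved with the group: Nr1h3 was in place 10 of 33 in HFD non-EEC and in place 27 and 29 in ND EEC and ND non-EEC, and Sqle, the squalene epoxidase gene, was in place 4 in HFD EEC and place 18 in HFD non-EEC.

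The first comparison asked what the high fat diet did to these genes in EEC. No member passed the test, as no gene of the 17087 did (0.0% of genes, edgeR's quasi-likelihood test with Benjamini-Hochberg adjustment over all genes). The fitted values of the synthesis genes lay mostly above 0: 16 of 19 had a positive log2 fold change, with a median of 0.52, where 50.2% of all genes were positive with a median of 0.00. At an unadjusted p below 0.05 there were 6 members, all higher under HFD (Hmgcs1, Fdft1, Fdps, Cyp51, Nsdhl and Insig1), against 9.44% of all genes in either direction and 4.20% higher. DESeq2 called 1 member, Hmgcs1, among 2.72% of all genes, and limma-voom called 0. In edgeR's test all 14 T cell markers were lower under HFD in EEC at an unadjusted p below 0.05, with a median log2 fold change of -4.42. The 14 enterocyte markers had a median of -0.01. In neither list did a marker pass, and the part of these cells in the member values was not tested.

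Among the synthesis genes, Hmgcs1 (chr13:119690379-119708260) had 144, 182 and 165 CPM in ND EEC and 366, 224 and 461 CPM in HFD EEC. Each HFD library was above each ND library, and the log2 fold change was 1.10 ± 0.33 (SE; edgeR adjusted p = 0.233). Fdft1 (chr14:63145150-63179578), which joins farnesyl diphosphates into squalene, had 49.3, 46.1 and 26.6 CPM in ND EEC and 147, 72.7 and 93.2 CPM in HFD EEC. These groups did not overlap either, with a log2 fold change of 1.36 ± 0.39 (edgeR adjusted p = 0.206). Its exons share 774 bases with Ctsb on the other strand, and no source used here gives the strand setting of the counting, so its level is uncertain. Fdps, the farnesyl diphosphate synthase gene upstream of it, had 23, 10.1 and 11.9 CPM in ND EEC and 28.5, 20.6 and 39.6 CPM in HFD EEC. The groups overlapped through ND replicate 1, and the log2 fold change was 0.98 ± 0.39 (edgeR adjusted p = 0.428). Fdps shares 1124 exon bases with Gm43738 on its own strand.

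Later steps gave smaller values. Cyp51, the lanosterol demethylase gene, had 128, 59.9 and 42.4 CPM in ND EEC and 158, 131 and 138 CPM in HFD EEC. Nsdhl, which removes the C4 methyl groups after it, had 23.1, 24.5 and 26.6 CPM in ND EEC and 54.1, 47.1 and 36.1 CPM in HFD EEC. In neither gene did the diets overlap. The other 14 synthesis genes had log2 fold changes from -0.22 (Lss, the lanosterol synthase gene) to 0.76 (Ebp, a sterol isomerase gene), and in all of them the diets overlapped. ND EEC replicate 1 was well above replicates 2 and 3 in several of these, as in Mvk, the mevalonate kinase gene (22.5 CPM against 4.50 and 2.02 CPM), Sqle (238 against 99.3 and 69.5 CPM) and Lss (82.1 against 36.6 and 23.9 CPM).

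Among the control genes, Insig1 (chr5:28071363-28078662) is both a brake on SREBP2 and one of its targets. It had 119, 43.4 and 35.7 CPM in ND EEC and 169, 124 and 172 CPM in HFD EEC. The diets did not overlap, although ND replicate 1 came close, and the log2 fold change was 1.23 ± 0.40 (edgeR adjusted p = 0.302). Its relative Insig2, which is not an SREBP2 target, had 36.5, 26.6 and 30 CPM under ND and 19.7, 25.5 and 37.3 CPM under HFD, with overlap. Stard4, which carries cholesterol between membranes, was level at 123, 139 and 136 CPM under ND and 115, 185 and 115 CPM under HFD. Srebf2, Scap and Mylip had log2 fold changes of 0.32 to 0.54, also with overlap.

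The uptake and efflux members of EEC lay the other way in their medians, with log2 fold changes of -0.40 and -0.76. Abca1 (chr4:53030787-53159895) had 36.4, 60 and 88.2 CPM under ND and 30, 29.5 and 23.9 CPM under HFD. It was the 1 member whose HFD libraries all lay below the ND libraries, which 6.59% of all genes did, while 5 members lay above without overlap (8.37% of all genes). Abcg5 had 35.9, 94.9 and 108 CPM under ND and 6.80, 86.7 and 38.8 CPM under HFD, and Abcg8 86.5, 77.2 and 110 CPM against 17.6, 112 and 42.7 CPM. HFD replicate 2, the EEC library with the highest enterocyte sum, was the highest HFD library for both pumps, and the diets overlapped. In simulated data of this size the test found 3% of genes changed 2-fold and 53.7% of genes changed 4-fold in this comparison, so changes of the size fitted here were mostly beyond its reach.

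**Figure D2:**
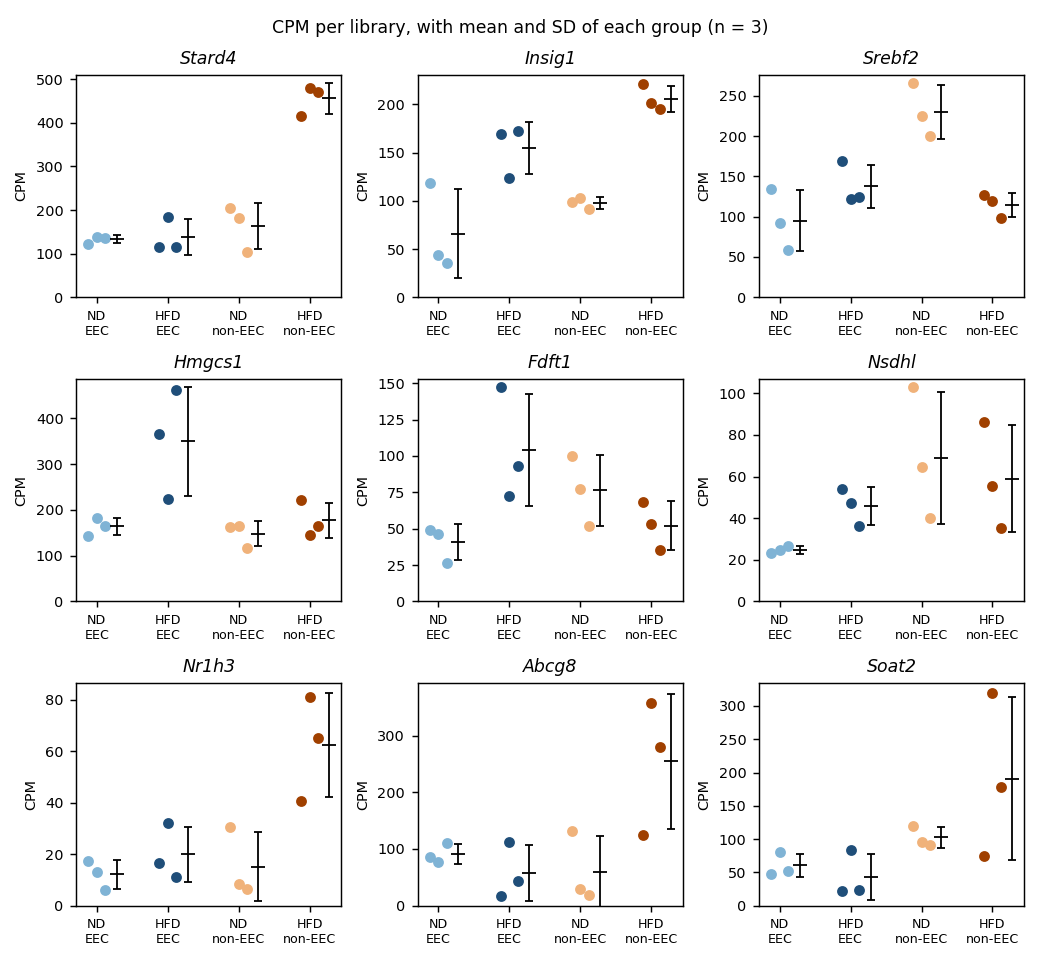
CPM of 9 of the genes in each library (points, by replicate order within a group), with mean and SD of each group (n = 3; an SD bar that would pass below 0 is cut at 0). Stard4 is at 416 to 481 CPM in HFD non-EEC against 104 to 204 CPM in the other 9 libraries, and Srebf2 is at 200 to 266 CPM in ND non-EEC against 58.7 to 169 CPM in the other 9.

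The same diet comparison in non-EEC gave 2 members past the test, Stard4 and Nr1h3, both higher under HFD. This was 2 of 33 where 14.9% of all genes tested were called (5.76% higher and 9.15% lower), a smaller share than the background. Members without overlap between the diets, 5 higher and 8 lower, stood near the background of 15.1% and 20.2%, and 17 of 33 had a positive log2 fold change beside 46.2% of all genes. Markers of other cell types moved with this contrast: 10 of 14 enterocyte markers rose under HFD (median log2 fold change over the 14 of 3.11) and 14 of 14 T cell markers fell (median -4.90). Of the smaller lists, 1 of 6 B cell markers (median -3.34), 1 of 6 macrophage markers (-2.23) and 1 of 6 tuft markers (-1.41) fell, and 0 of 5 Paneth markers passed (median 2.55, 4 at an unadjusted p below 0.05). The part of these cells in the values that follow was not tested.

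Stard4 had 204, 181 and 104 CPM in ND non-EEC and 416, 481 and 471 CPM in HFD non-EEC. All 3 HFD libraries were above the other 9 libraries of the study, and the log2 fold change was 1.48 ± 0.33 (edgeR adjusted p = 0.0111). The call held in each of the 21 alternatives, with an adjusted p of 3.01e-05 to 0.0418. As a difference from the mean log2 level of the enterocyte markers, Stard4 stood at -2.63, -0.15 and -0.69 under ND and at -2.30, -3.63 and -3.26 under HFD, so the diets overlapped on that scale.

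Nr1h3 (chr2:91184061-91202834), which encodes the LXR alpha receptor for oxysterols, had 30.4, 8.49 and 6.47 CPM in ND non-EEC and 40.7, 80.8 and 65.1 CPM in HFD non-EEC. The diets did not overlap, and ND replicate 1, the enterocyte-rich ND library, came nearest to the HFD values. The log2 fold change was 2.04 ± 0.62 (edgeR adjusted p = 0.0428). The call rested on many libraries: it was lost without any 1 of ND non-EEC replicates 2 and 3, HFD non-EEC replicates 1, 2 and 3, ND EEC replicate 2 and HFD EEC replicates 1 and 3, and with only the libraries compared, at an adjusted p of up to 0.149. Relative to the enterocyte markers Nr1h3 was at -5.35, -4.49 and -4.60 under ND and at -5.64, -6.20 and -6.11 under HFD on the log2 scale, lower in every HFD library. Those markers themselves had a median log2 fold change of 3.11 here, so a gene that rose less reads lower on this scale. Whether the diet changed the markers within enterocytes was not tested.

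The 3 export genes had positive values that did not pass. Abcg5 (chr17:84658234-84683011) had 101, 30.8 and 17.8 CPM under ND and 96, 257 and 220 CPM under HFD. Abcg8 (chr17:84676302-84700333), its partner half-transporter, had 132, 28.7 and 19.1 CPM under ND and 125, 358 and 280 CPM under HFD. In both, ND replicate 1 overlapped HFD replicate 1 and the rest were apart. Abca1, which loads cholesterol onto apolipoprotein A-I, had 40.4, 4.60 and 5.56 CPM under ND and 15.2, 71.3 and 32.4 CPM under HFD, with overlap. Their log2 fold changes were 1.23 to 2.09 with edgeR adjusted p of 0.0763 to 0.290, and without ND non-EEC replicate 1 all 3 passed, with Npc1l1, Mylip, Nr1h3 and Stard4, so that 7 members were then called (23.5% of all genes). The mean log2 level of the 4 efflux genes, taken against that of the enterocyte markers, was -4.30, -3.82 and -3.93 under ND and -5.28, -5.29 and -5.39 under HFD. Abcg5 and Abcg8 share 82 exon bases on opposite strands. Their ratio was 0.762, 1.07 and 0.931 under ND and 0.766, 0.718 and 0.785 under HFD.

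Uptake genes gave no call. Npc1l1 (chr11:6211013-6230143) had 988, 200 and 87.6 CPM in ND non-EEC and 627, 2455 and 1264 CPM in HFD non-EEC, with ND replicate 1 inside the HFD range. Soat2 had 120, 96.2 and 91.1 CPM under ND and 75.3, 319 and 178 CPM under HFD, with HFD replicate 1 below the ND libraries. Npc1 and Npc2, which hand cholesterol out of the lysosome, had log2 fold changes of 0.27 and -0.52.

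Within the SREBP2 control list, the members of non-EEC lay in both directions, as Srebf2 and Insig1 did. Srebf2 (chr15:82147181-82205379) had 266, 225 and 200 CPM under ND and 127, 119 and 97.9 CPM under HFD. No HFD library reached an ND library, and the log2 fold change was -1.01 ± 0.33 (edgeR adjusted p = 0.0546). Insig1 lay the other way without overlap, at 98.4, 103 and 91.7 CPM under ND and 221, 201 and 195 CPM under HFD, and did not pass. Mylip (chr13:45389742-45412022) was placed in this list, although its product acts on lipoprotein receptors. It had 8.64, 23.8 and 34.7 CPM under ND and 1.87, 6.6 and 4.55 CPM under HFD, a log2 fold change of -2.38 ± 0.77 (edgeR adjusted p = 0.0539). The ratio of Insig1 to Srebf2 was 0.370, 0.460 and 0.458 under ND and 1.74, 1.69 and 2 under HFD. In EEC the ND libraries stood at 0.883, 0.471 and 0.609 and the HFD libraries at 1, 1.02 and 1.39. In both populations every HFD library had a higher ratio than every ND library, which is given as a description with no test.

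The synthesis genes of non-EEC had a median log2 fold change of -0.20 (7 of 19 positive) beside -0.10 for all genes, and none passed. Lss was lowest at -0.92, with 66.2, 82.6 and 53.4 CPM under ND and 45.8, 35 and 26.1 CPM under HFD. Hsd17b7, a keto reductase gene of the C4 demethylation step, was highest at 0.93, with 48.8, 53.4 and 32.1 CPM under ND and 93.8, 87.8 and 74 CPM under HFD. Both were apart between the diets, in opposite directions. Idi1, the isopentenyl diphosphate isomerase gene, varied little, with 70 to 120 CPM over the 6 non-EEC libraries and 70.8 to 102 CPM over the 6 EEC libraries.

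**Figure D3:**
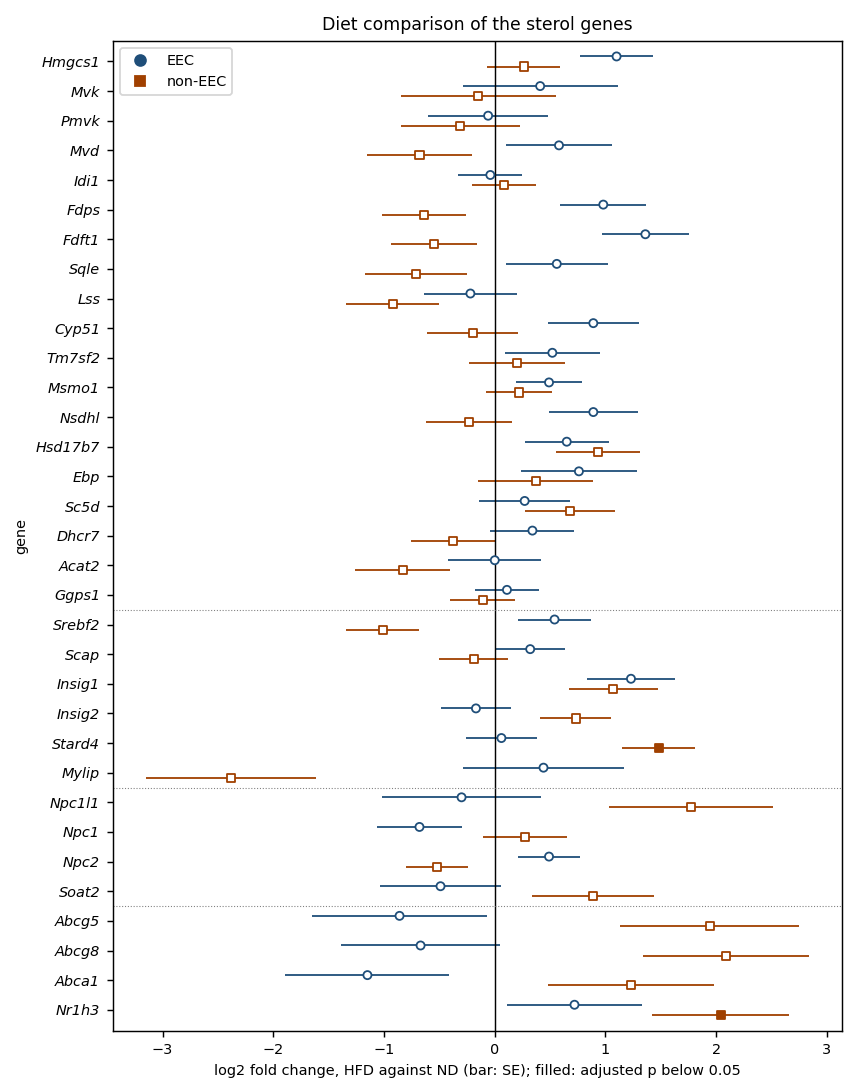
Fitted log2 fold change of HFD against ND for each gene (points) with its standard error (bars), in EEC (circles) and non-EEC (squares); filled symbols passed an adjusted p of 0.05, and dotted lines part the roles. Stard4 and Nr1h3 in non-EEC are the filled symbols, and the efflux genes sit between 1.23 and 2.09 in non-EEC.

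The difference of the diet effects, EEC minus non-EEC, tests directly whether the diet contrast differed between the sorted populations. No member passed (0.497% of all genes did in edgeR's quasi-likelihood test), and 21 of 33 had a positive difference beside 54.2% of all genes. At an unadjusted p below 0.05 there were 9 members, 5 with a positive and 4 with a negative difference, against 16.5% of all genes. DESeq2 called 3 members (Fdft1, Srebf2 and Stard4) and limma-voom 12. The shares of all genes that these methods called here are not given, so the counts cannot be read as particular to the members. Fdft1 had a difference of 1.91 ± 0.55 (edgeR adjusted p = 0.123), Srebf2 of 1.55 ± 0.46 (0.134), Fdps of 1.63 ± 0.54 (0.169) and Stard4 of -1.43 ± 0.45 (0.152). The Stard4 value joins a level diet contrast in EEC (0.06) with the rise in non-EEC (1.48). Srebf2 was at 135, 92.1 and 58.7 CPM in ND EEC and 169, 122 and 124 CPM in HFD EEC, so its fitted diet contrasts were 0.54 in EEC and -1.01 in non-EEC.

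SREBP2 targets were then set against efflux genes, taking the 19 synthesis genes with Insig1 and Stard4 as the targets. In EEC the diet contrast had a median of 0.52 over the 21 targets (18 positive) and -0.76 over the 4 efflux genes (1 positive, Nr1h3), beside 0.00 for all genes. In non-EEC the medians were -0.15 (9 positive) and 1.99 (4 positive), beside -0.10 for all genes. For the difference of diet effects they were 0.56 (17 of 21 positive) and -2.57 (0 of 4 positive), beside 0.11 for all genes. The target median in non-EEC was thus close to that of all genes. The 4 efflux genes include the receptor gene Nr1h3, the 1 of them that passed in non-EEC. They leave out the sterol exporter gene Abcg1, which was lower under HFD in non-EEC (-3.24). In its own list, LXR and its other targets, 1 of 6 was called higher and 2 lower there. The order of the lists was not tested.

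Per library, the mean log2 level of the 21 targets minus that of the 4 efflux genes was 0.34, -0.56 and -0.92 under ND and 1.87, -0.20 and 1.02 under HFD for EEC. For non-EEC it was -0.15, 2.03 and 2 under ND, and 0.13, -1.55 and -1.17 under HFD. The diets overlapped in each population, through HFD EEC replicate 2 and through ND non-EEC replicate 1 and HFD non-EEC replicate 1. Of these 3, HFD EEC replicate 2 and ND non-EEC replicate 1 had the highest enterocyte sum of their group, and HFD non-EEC replicate 1 the lowest. The targets themselves varied little in non-EEC, with means of 5.47 to 5.86 under ND and 5.57 to 5.85 under HFD, while the efflux mean ran from 3.47 to 6.00 and from 5.73 to 7.25. Taken against the enterocyte markers, the target mean of non-EEC was -4.45, -1.79 and -1.93 under ND and -5.15, -6.85 and -6.57 under HFD.

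**Figure D4:**
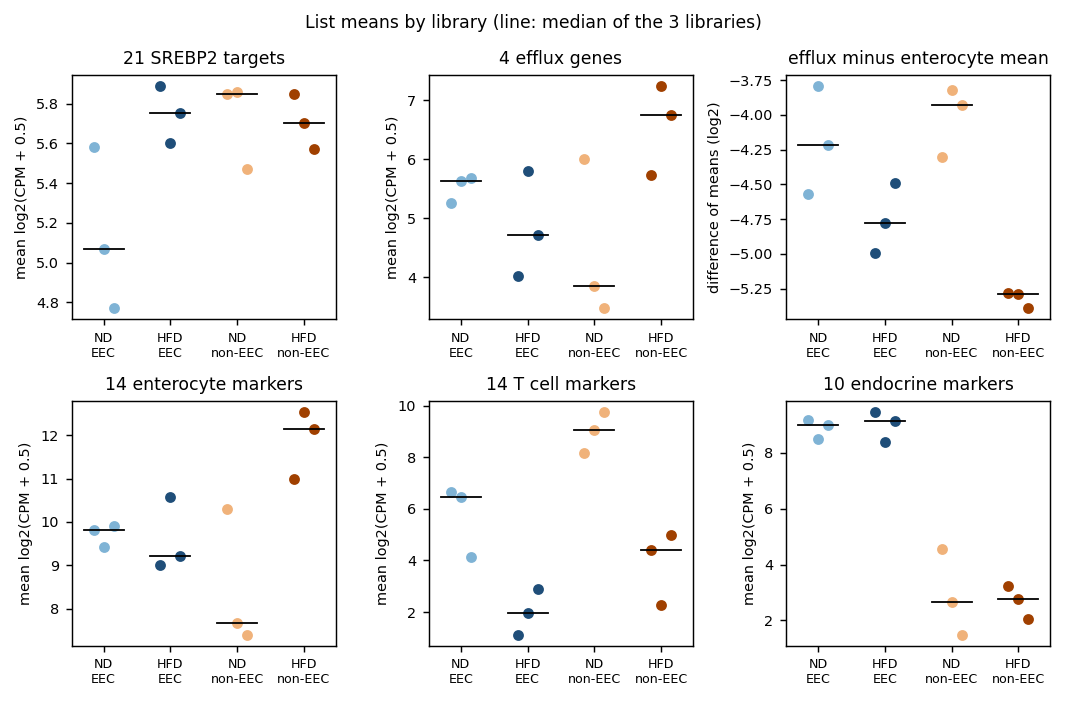
Mean log2(CPM + 0.5) of the 21 SREBP2 targets, the 4 efflux genes and 3 lists of cell type markers in each library (points; line at the median of the 3 libraries of a group), and the efflux mean minus the enterocyte mean. Efflux and enterocyte means share the high ND non-EEC replicate 1 and the high HFD non-EEC group, and their difference is lowest in HFD non-EEC, at -5.39 to -5.28.

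EEC were compared with non-EEC under each diet to ask where hormone cells stand in these genes. Under ND, 3 members were lower in EEC and 0 higher, in edgeR's quasi-likelihood test that called 12.8% of all genes (4.90% lower in EEC). Srebf2 was lower in EEC by a log2 fold change of -1.28 ± 0.33 (edgeR adjusted p = 0.0245), with 58.7 to 135 CPM in EEC against 200 to 266 CPM in non-EEC. Nsdhl (chrX:72918557-72958514) had 23.1, 24.5 and 26.6 CPM in EEC and 103, 64.5 and 40 CPM in non-EEC, a log2 fold change of -1.48 ± 0.40 (0.0295). Npc2 (chr12:84754562-84773152), the soluble cholesterol carrier of the lysosome, had 62, 51.9 and 59 CPM in EEC and 96.7, 110 and 143 CPM in non-EEC, a log2 fold change of -1.02 ± 0.28 (0.0327). In all 3 the populations did not overlap, as in 8 members lower and 1 higher in EEC (16.7% and 15.7% of all genes). Fdps followed at -1.08 ± 0.39 and did not pass (0.0842). T cell markers were higher in the ND non-EEC (13759 to 41721 CPM against 787 to 5165 CPM in ND EEC), and their part in these differences was not tested.

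Those calls were not firm. With only the 6 libraries compared, or on removal of either of ND EEC replicates 2 and 3 or of ND non-EEC replicate 2, 0 members were called. With no filter on low counts Npc2 was lost. Without ND non-EEC replicate 3 Nsdhl alone was called, and without ND non-EEC replicate 1 Npc2 and Srebf2 were lower in EEC and Abca1 and Npc1l1 higher. Without ND EEC replicate 1 there were 6 (Cyp51, Fdps, Insig1, Mvk, Npc2 and Srebf2). No share of all genes is given for these alternative fits, so their counts cannot be read as particular to the members. The synthesis genes had a median of -0.58 with 13 of 19 negative, and the efflux genes a median of 0.65, beside -0.02 for all genes. Acat2, which makes acetoacetyl-CoA for the pathway, was also apart, at 14.8 to 24.1 CPM in ND EEC and 32.8 to 49.7 CPM in ND non-EEC.

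Under HFD, 2 members were lower in EEC and 0 higher, where 14.0% of all genes were called (3.77% lower in EEC). Stard4 was lower in EEC by -1.72 ± 0.33 on the log2 scale (edgeR adjusted p = 0.00392), in all 22 alternatives. This comparison shares the HFD non-EEC libraries with the diet comparison of non-EEC. Soat2 (chr15:102150526-102163469) had 21.7, 83.3 and 24.2 CPM in EEC and 75.3, 319 and 178 CPM in non-EEC, a log2 fold change of -2.15 ± 0.57 (edgeR adjusted p = 0.0249). The populations overlapped, since HFD EEC replicate 2 was above HFD non-EEC replicate 1, and the call was lost without HFD EEC replicate 1 or 3 or HFD non-EEC replicate 2 or 3 (adjusted p of up to 0.116). Npc1 was at -1.22 ± 0.39 (0.0529), with 33.5 to 44.7 CPM in EEC and 55.4 to 145 CPM in non-EEC. Sqle (chr15:59315077-59331192) was at 1.41 ± 0.46 (0.0608), with 229, 151 and 219 CPM in EEC and 102, 78.9 and 44.5 CPM in non-EEC. Neither overlapped between the populations, as in 6 members higher (21.0% of all genes) and 8 lower in EEC (14.9%). Enterocyte markers were lower in HFD EEC than in HFD non-EEC (12529 to 29524 CPM against 49285 to 114189 CPM), and their part in the Soat2 and Npc1 values was not tested.

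The replicate numbers were taken to pair the HFD libraries, which the labels do not state. Same-numbered HFD libraries correlated at 0.20, 0.21 and 0.19, but libraries of different diets, which cannot share a mouse, reached 0.19. A fit with the replicate number as a block within each diet called 10 members, where it called 16.4% of all genes. Of these members, 4 were higher in EEC (Fdft1, Hmgcs1, Mylip and Sqle) and 6 lower (Abcg8, Npc1, Nr1h3, Sc5d, Soat2 and Stard4). In that fit Sqle was at 1.46 ± 0.37 (edgeR adjusted p = 0.0315) and Npc1 at -1.08 ± 0.28 (0.0358). Hmgcs1 had 221, 146 and 164 CPM in HFD non-EEC, and each of them was below the 224 to 461 CPM of HFD EEC. Fdft1 was apart in the same way, at 68.4, 52.9 and 35.1 CPM in HFD non-EEC. Efflux genes had a median of -1.88 under HFD with all 4 negative, beside 0.00 for all genes. Abcg5, Abcg8 and Nr1h3 were each lower in every HFD EEC library than in every HFD non-EEC library.

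Over both diets 3 members were lower in EEC, Stard4, Soat2 and Nsdhl, and 0 higher, where 21.6% of all genes were called (7.8% lower in EEC). Stard4 was at -1.01 ± 0.23 (edgeR adjusted p = 0.00668), Soat2 at -1.46 ± 0.40 (0.0186), Nsdhl at -0.92 ± 0.28 (0.0309) and Hsd17b7 at -0.78 ± 0.27 (0.0508, not passed). Under neither diet alone did all of them pass. The Soat2 call was lost without HFD non-EEC replicate 2 (0.0501), and that of Nsdhl when any 1 of these was left out: replicates 2 and 3 of ND EEC and of HFD EEC, replicates 1 and 2 of ND non-EEC, and replicate 1 of HFD non-EEC. Stard4 was called in all 21 alternatives.

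**Figure D5:**
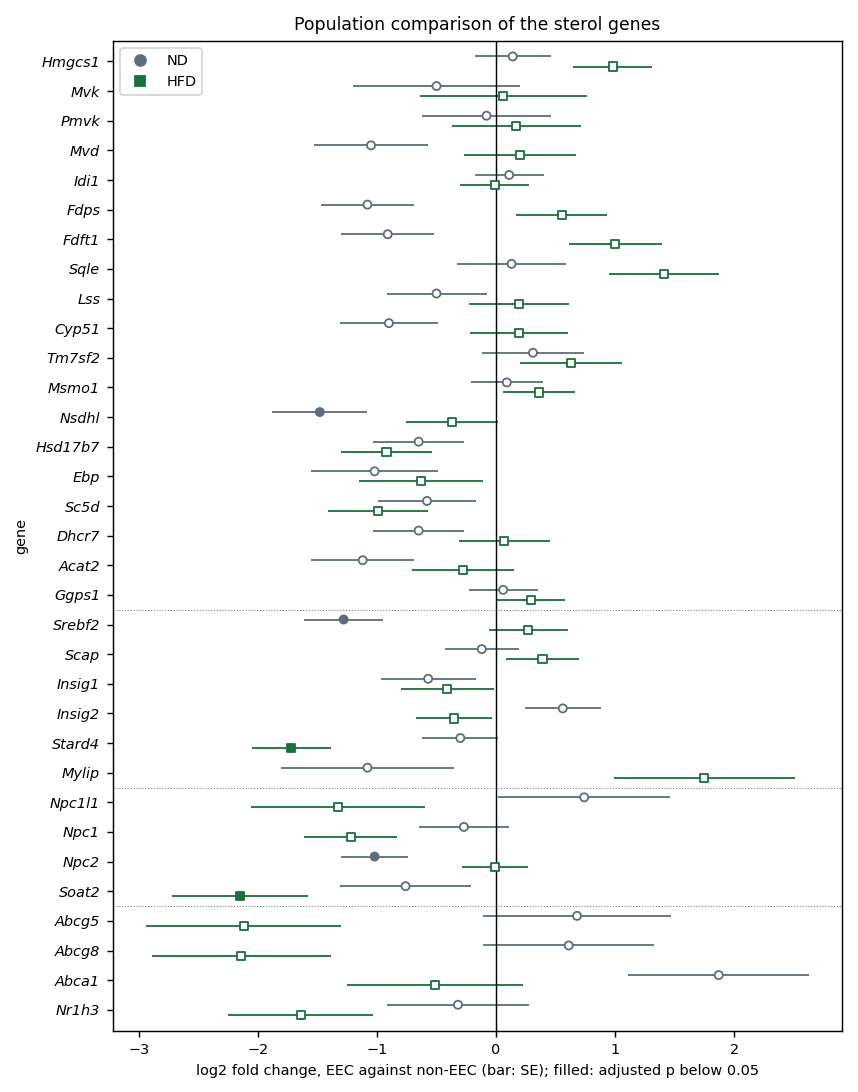
Fitted log2 fold change of EEC against non-EEC for each gene (points) with its standard error (bars), under ND (circles) and HFD (squares); filled symbols passed an adjusted p of 0.05. Nsdhl, Srebf2 and Npc2 under ND and Stard4 and Soat2 under HFD are filled, all below 0.

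The other members without a call are given by their range over the 12 libraries. Among early enzymes, Mvd, which makes isopentenyl diphosphate, was at 5.63 to 24.4 CPM and Pmvk, the phosphomevalonate kinase gene, at 6.62 to 35.1 CPM. Ggps1, which branches off to geranylgeranyl diphosphate, was even at 34.5 to 56.4 CPM. Among late enzymes, Msmo1, the C4 methyl oxidase gene, was at 76.7 to 183 CPM, highest in HFD EEC replicate 3, and Tm7sf2 at 8.33 to 24.4 CPM. Tm7sf2 shares 532 exon bases with Vps51 on its own strand. Ebp was at 3.85 to 44.7 CPM, Sc5d, a sterol desaturase gene, at 27.2 to 159 CPM, and Dhcr7, a late reductase of the pathway, at 30.2 to 109 CPM. Scap, the escort of SREBP2, was at 22 to 46.9 CPM, with both ends in ND EEC.

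Genes around the members were counted from fixed lists. In EEC the diet comparison called 0 genes in each of them, where 0.0% of all genes were called. In non-EEC it called 14.9% of all genes (5.76% higher and 9.15% lower), beside which the counts below are to be read. Among 9 genes of the sterol sensing machinery in the endoplasmic reticulum, the non-EEC diet comparison called 1 higher, Erlin1, which acts in the degradation of INSIG-bound proteins (42.0 ± 20.5 CPM under ND and 202 ± 38.3 under HFD, SD, n = 3; log2 fold change 2.26 ± 0.41, edgeR adjusted p = 0.00481), and 1 lower, the ubiquitin ligase gene Rnf145 (88.7 ± 23.4 and 31.9 ± 7.55 CPM; -1.47 ± 0.32, 0.0111). Among 12 genes of the isoprenoid branches it called Pdss1, of the coenzyme Q side chain, as higher (1.45). Among 5 tested of 7 genes for esters and oxysterols it called Soat1, the broadly expressed counterpart of Soat2, as lower: 66.9 ± 20.1 CPM under ND and 17.3 ± 6.07 under HFD (-1.95 ± 0.35, edgeR adjusted p = 0.00437). LXR and its other targets gave 1 of 6 higher, Lpcat3, a phospholipid remodelling gene (2.01), and 2 lower, the sterol exporter gene Abcg1 (-3.24) and Smpdl3a (-0.99). Directions within the lists were thus mixed, and the T cell and enterocyte sums given above moved with all of these values. Leaving out replicate 3 of ND non-EEC, or replicate 2 of HFD non-EEC, ended the calls of Rnf145, Pdss1, Lpcat3 and Smpdl3a. Those of the last 3 also ended when replicate 2 of ND non-EEC, or either of replicates 1 and 3 of HFD non-EEC, was left out. So did those of Lpcat3 and Smpdl3a when HFD EEC replicate 1 was left out, that of Pdss1 when HFD EEC replicate 3 was, and that of Smpdl3a when HFD EEC replicate 2, or ND EEC replicate 3, was. The Pdss1 call was lost as well with upper quartile factors, no filter or the 5 CPM filter, that of Smpdl3a with RLE factors, no filter or only the libraries compared, and that of Lpcat3 with only the libraries compared. Erlin1, Soat1 and Abcg1 were called in all 21 alternatives.

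Several lipoprotein uptake genes differed between the populations. Of 13 sterol transport and lipoprotein uptake genes, 3 were higher and 1 lower in EEC under HFD, and 2 were higher and 1 lower under ND, where 14.0% and 12.8% of all genes were called. Scarb1, the receptor for high density lipoprotein, had 50.1 ± 7.11 CPM under ND and 76.5 ± 11.8 CPM under HFD in EEC, and 7.35 ± 4.22 and 6.93 ± 3.03 CPM in non-EEC. Vldlr, a receptor for triglyceride-rich lipoproteins, had 65.5 ± 24.9 and 60.8 ± 3.29 CPM in EEC against 6.03 ± 6.95 and 7.86 ± 5.90 CPM. Both passed under each diet, with log2 fold changes of 2.77 and 3.47 for Scarb1 and 3.45 and 2.93 for Vldlr. Lrp8, a relative of Vldlr, passed under HFD (3.32), and Lipa, the lysosomal lipase gene that frees cholesterol from esters, was lower in EEC under HFD (-2.56). Lipa also rose under HFD in non-EEC (1.79), where Gramd1a (-4.29) and Osbpl8 (-1.93), which move sterols at membrane contacts, fell. The Lipa rise was lost when either of replicates 2 and 3 of ND non-EEC, or replicate 2 of HFD non-EEC, was left out, and the Osbpl8 fall without ND non-EEC replicate 3. Vldlr was not called under ND without ND non-EEC replicate 2, nor under HFD without HFD EEC replicate 1 or 3 or HFD non-EEC replicate 2 or 3. In the other sterol lists, under HFD the sterol sensing, ester and LXR lists each had 1 gene higher and 1 lower in EEC (of 9, 5 and 6 tested) and the isoprenoid list 1 of 12 lower, and under ND the LXR list had 1 lower and the other 3 had none.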

How the data were processed

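Deposited values were raw counts per Ensembl gene, 39086 genes in 12 libraries (jejunal villus cells, Ovation RNA-Seq V2 cDNA). Per the submitters' processing notes the authors used CASAVA 1.8.2, TopHat2 2.0.10, Bowtie2 2.1.0 and HTSeq 0.5.4p3 with mm10. No source used here gives the annotation release, the strand setting or the counting mode. Symbols (37607 identifiers, 96.2%) and positions came from GENCODE vM21.

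Libraries were grouped by the labels (population and diet). Genes were filtered with filterByExpr, scaled by TMM and fitted with 4 group means over 12 libraries (edgeR 4.0.16 in R 4.3.3, quasi-likelihood test, 8 residual degrees of freedom, common biological coefficient of variation 0.536). Adjusted p-values are Benjamini-Hochberg over 17087 genes, with calls below 0.05. CPM use TMM-scaled totals, and log2 levels use a prior of 0.5. Depth per library, 9543183 to 29054281 counts, limits low genes most: the lowest member count was 17 (Mylip). Each fit gave log2 fold changes with standard errors, and every member's p came from the fit over all genes. Full statistics are given for members called and for the 4 with the smallest p in each comparison, and genes of the wider lists are named, up to 4 a list, only if called. The 33 members, the lists, the motifs and these rules were chosen with earlier results of these data known.

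Replicate numbers in the labels do not state shared mice. Deviations from group means of same-numbered EEC and non-EEC libraries correlated across genes at 0.20, 0.21 and 0.19 under HFD, and at 0.13, 0.21 and -0.02 under ND, so the numbers were taken to pair the HFD libraries only. This pairing is not firm, since replicate 3 of ND non-EEC and replicate 3 of HFD non-EEC, of different diets, also correlated at 0.19. Alternatives tried were other scaling factors (RLE, upper quartile), no low-count filter or one of 5 CPM in at least 3 libraries, robust dispersions, DESeq2 1.42.0, limma 3.58.1 (voom with quality weights), replicate blocks, only the libraries compared and leaving out each library. The edgeR script was tested on simulated counts with 200 genes changed: for the diet comparison in EEC it called 2 of the 67 genes with a 2-fold change, 36 of the 67 with a 4-fold change and all 66 with a 16-fold change, and for non-EEC 6, 39 and 66. Start regions came from RefSeq (GRCm38.p6), with members on chromosome 18 left out. Figures used matplotlib 3.10.9.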

Additional observations from a re-analysis of the deposited data

Results flagged for a closer look

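Rnf145, an endoplasmic reticulum ubiquitin ligase gene of the sterol sensing list, was the 1 gene of the members and wider lists whose diet effect differed between the populations by a direct test. The difference of diet effects, EEC minus non-EEC, was 2.40 ± 0.45 on the log2 scale (SE; edgeR adjusted p = 0.0420). Mean levels were 126 ± 15.3 CPM in ND EEC and 240 ± 70.4 CPM in HFD EEC, against 88.7 ± 23.4 CPM in ND non-EEC and 31.9 ± 7.55 CPM in HFD non-EEC (SD, n = 3). The call was lost in 12 of 21 alternatives, with an adjusted p of 0.000183 to 0.132 over all of them. These were the replicate block nested within diet and the removal of any 1 library other than ND non-EEC replicate 1. The summed T cell markers of the non-EEC, 13759 to 41721 CPM under ND and 120 to 1185 CPM under HFD, moved with the fall of Rnf145 there, and their part in it was not tested.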

How the results depend on the processing

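Of 1540 values of 72 single-gene results under the alternatives, 1323 kept direction and side of the threshold, 54 passed where they had not, 163 no longer passed, and 0 reversed. Counts of members called varied more. The share of all genes called moved with the setting too, from 0.0% to 2.72% in the EEC diet comparison. For the other comparisons that share is mostly not given, so the counts below cannot be read as particular to the members. For HFD against ND in EEC (0 called) DESeq2 gave 1. In non-EEC (2 called), no filter gave 4, the 5 CPM filter 4, DESeq2 8, limma-voom 15 and the replicate block 4, and leaving out 1 library gave 1 to 7, with 7 without ND non-EEC replicate 1, 5 without ND EEC replicate 1, and Stard4 alone without any 1 of ND EEC replicate 2, ND non-EEC replicates 2 and 3, HFD EEC replicates 1 and 3 or the HFD non-EEC replicates. For EEC against non-EEC under ND (3 called), limma-voom gave 16, only the libraries compared 0, and leaving out 1 library 0 to 6. Under HFD (2 called), no filter gave 5, the 5 CPM filter 5, DESeq2 8, limma-voom 12, the replicate block 6, the block nested within diet 10, only the libraries compared 7, and leaving out 1 library 1 to 5, with Stard4 alone without HFD EEC replicate 1 or 3 or HFD non-EEC replicate 2 or 3, and 4 or 5 without HFD EEC replicate 2, ND EEC replicate 3 or ND non-EEC replicate 1 or 3. Over both diets (3 called), DESeq2 gave 7, limma-voom 13, the replicate block 6, the nested block 7, and leaving out 1 library 2 to 6, with 6 without ND EEC replicate 1. For the difference of diet effects (0 called), DESeq2 gave 3, limma-voom 12, and leaving out 1 library 0 to 3, with 3 (Abca1, Abcg8 and Npc1l1) without ND non-EEC replicate 1. The cause of these differences was not tested, beyond the fewer libraries of the reduced fits. RLE and upper quartile factors moved the median of all genes by at most 0.041 (log2). Same-numbered libraries across diets correlated at 0.15, 0.12 and 0 in EEC and at -0.07, -0.09 and 0.19 in non-EEC. The replicate block there joins libraries of different mice, and the labels do not say whether the number also marks a batch. With 3 libraries a group, 2-fold changes were mostly below what the test could call.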

Other observations

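Fatty acid genes controlled by the related factor SREBP1 changed in both directions. Of 11 such genes, the diet comparison in non-EEC called 1 higher and 3 lower (edgeR's quasi-likelihood test), where 5.76% of all genes were called higher and 9.15% lower. Me1, the malic enzyme gene that supplies NADPH, rose from 8.71 ± 4.99 to 178 ± 49.1 CPM (SD, n = 3; log2 fold change 4.36 ± 0.52, edgeR adjusted p = 0.00162). Scd2, a desaturase gene, fell from 124 ± 43.2 to 29.7 ± 7.91 CPM, Acly, which makes cytosolic acetyl-CoA, from 135 ± 20.9 to 41.7 ± 17.2 CPM, and the elongase gene Elovl5 from 111 ± 32.0 to 42.0 ± 16.2 CPM. The calls of Acly and Elovl5 were lost without any 1 of ND non-EEC replicates 2 and 3 and HFD non-EEC replicates 2 and 3, and that of Elovl5 also without HFD EEC replicate 1. In EEC 0 of the 11 were called, and Me1 was at 6.83 ± 2.45 CPM under ND and 37.9 ± 12.2 CPM under HFD. Between the populations 5 of the 11 were called under HFD (14.0% of all genes): Acly (1.85), Elovl5 (1.48) and the desaturase gene Fads1 (2.17) were higher in EEC, and Me1 (-2.23) and Scd1, another desaturase gene, were lower. Under ND 1 was called (12.8% of all genes), Scd1, at 0.913 ± 1.31 CPM in EEC and 6.3 ± 1.90 CPM in non-EEC (-2.85). Leaving out replicate 1 of HFD EEC, or either of replicates 2 and 3 of HFD non-EEC, ended the HFD calls of Acly, Elovl5 and Fads1, the last 2 of which also needed replicate 3 of HFD EEC. That of Me1 held in all 22 alternatives, and the ND call of Scd1 was lost in 12 of 22. Srebf1 itself was lower in EEC than in non-EEC under ND (28 ± 8.30 against 73.2 ± 4.83 CPM; -1.39 ± 0.35, edgeR adjusted p = 0.0231) and under HFD (53.1 ± 8.64 against 128 ± 53.4 CPM; -1.27 ± 0.35, 0.0293). It was counted in the LXR list, and its call was lost under ND with only the libraries compared and without ND EEC replicate 3 or ND non-EEC replicate 2 or 3, and under HFD without any 1 of the HFD libraries other than HFD non-EEC replicate 1. Enterocyte and T cell markers moved with the non-EEC values, and their part was not tested.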
